A study of Mus musculus with 8 samples.

Results

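The genes described here are 34 genes of the lysosome and of autophagy, chosen by name from the 50907 genes in the expression table of mouse embryonic stem cells (ESCs). They encode regulators of lysosomal gene expression, proteins of the lysosomal membrane, acid hydrolases and their cofactors, subunits of the proton pump of the lysosome, and proteins that build the autophagosome or load it. All 34 had reads in every library, between 112 and 3489 per gene. The question was whether their mRNA levels differ between ESCs that depend on full-length BAZ2A and ESCs that depend on BAZ2A without its TAM domain, through which BAZ2A binds RNA.

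RNA-seq was performed in the 129 mouse ESC line E14, grown in N2B27 medium with LIF and the 2 inhibitors of 2i. A Flag- and HA-tagged BAZ2A that resists the siRNA was inserted by PiggyBac transposase, either as the wild-type protein (ESC + F/H-BAZ2Ar WT) or lacking the TAM domain (ESC + F/H-BAZ2Ar ΔTAM). Cells of both conditions were transfected with siRNA-Baz2a and collected 3 days later, so that every library comes from cells treated against endogenous *Baz2a* that carry a transgene. 4 libraries were made for each condition. The transgenic lines were derived as clones, the number of clones used for RNA-seq is not given in the sources used here, and an effect of the transgene cannot be told apart from a difference between the lines. Nothing in the labels says whether the 4 libraries of a condition come from separate cultures, so the p-values measure the spread between these libraries, which may be technical.

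Lysosomes are acidic compartments in which hydrolases break down proteins, glycans and lipids that arrive by endocytosis or by autophagy. In autophagy, a membrane grows around cytoplasmic cargo with the help of ubiquitin-like ATG8 proteins and then fuses with the lysosome. Many genes of both systems carry the E-box-like element CACGTG near their start site, which is bound by the transcription factors TFEB and TFE3, and in ESCs the exclusion of TFE3 from the nucleus by FLCN is known for its part in the exit from the naive state.

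The conditions had similar depth, with 7280917 to 7713913 reads on genes per WT library and 6585266 to 8695902 per ΔTAM library. *Baz2a* itself, counted over endogenous and any transgenic reads together, had a mean of 10.5 RPKM in WT and 18.3 RPKM in ΔTAM libraries (log2 fold change 0.79, adjusted p = 3.4e-05 by limma with Benjamini-Hochberg adjustment), and this does not check the labels since both lines carry a transgene. An effect of this difference in *Baz2a* mRNA cannot be told apart from the loss of the TAM domain. The paper reports similar BAZ2A levels in both lines by western blot. The 8 markers of naive ESCs were all above the filter on low values, with summed levels of 364 to 374 RPKM in WT and 296 to 323 RPKM in ΔTAM libraries, of which *Dppa5a* alone made up 283 RPKM on average in WT and 233 RPKM in ΔTAM. By limma, *Sox2*, *Klf4*, *Dppa5a* and *Esrrb* were lower in ΔTAM, at log2 fold changes of -0.42, -0.39, -0.28 and -0.20, and *Pou5f1*, *Nanog*, *Zfp42* and *Tfcp2l1* were not called, at -0.06 to 0.02. Of 7 macrophage markers, *Csf1r*, *Adgre1*, *Tyrobp* and *Fcgr1* had no reads in any library, and the 7 summed to at most 0.0317 RPKM in WT and 0.0330 RPKM in ΔTAM. The 8 markers of primitive endoderm summed to at most 0.0612 RPKM and the 7 of fibroblasts to at most 0.0332 RPKM, with *Afp*, *Col3a1*, *Dcn* and *Lum* without reads. The 6 markers of trophoblast summed to 0.412 to 0.463 RPKM in WT and 0.367 to 0.567 RPKM in ΔTAM libraries, of which *Cdx2* and *Eomes* were above the filter. *Eomes* was lower in ΔTAM (log2 fold change -0.26, adjusted p = 0.0359 by limma, and -0.45 in recovered reads), but its conditions overlapped and the call was lost when any 1 of 6 of the 8 libraries was left out (adjusted p up to 0.0901 by limma). *Cdx2* was not called on RPKM (0.28, adjusted p = 0.130 by limma) but was higher in recovered reads (0.39, adjusted p = 0.0313 by limma voom). The part of the naive and trophoblast markers in the results below was not tested.

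To show the element in these genes, the RefSeq promoter windows of GRCm38.p6, from 250 bases before to 50 bases after the start site, were searched for CACGTG and for TCACGTGA, which contains it. Both motifs read the same on either strand. A window was found for 29 of the 34 genes. CACGTG was present in 11 of the 29 windows (37.9%), in 35 of 145 windows of other lysosome and autophagy genes (24.1%) and in 2187 of the 27025 genes with a window (8.09%). TCACGTGA was present in 6 of the 29 (20.7%), in 15 of the 145 (10.3%) and in 304 of the 27025 (1.12%). The windows of the following 5 genes are shown 5′ to 3′ with CACGTG in capitals, because they set a gene with several copies that was higher in ΔTAM (*Lamp1*, 4 copies) beside genes that were lower (*Ctsd* and *Glb1*), one that did not pass the test (*Mcoln1*) and the gene with the largest change of the 34, which has no copy (*Gabarapl2*). They lie at chr8:13158911-13159210 on the plus strand (*Lamp1*), chr7:142387778-142388077 on the minus strand (*Ctsd*), chr9:114400828-114401127 on the plus strand (*Glb1*), chr8:3500269-3500568 on the plus strand (*Mcoln1*) and chr8:111940453-111940752 on the plus strand (*Gabarapl2*).
Lamp1: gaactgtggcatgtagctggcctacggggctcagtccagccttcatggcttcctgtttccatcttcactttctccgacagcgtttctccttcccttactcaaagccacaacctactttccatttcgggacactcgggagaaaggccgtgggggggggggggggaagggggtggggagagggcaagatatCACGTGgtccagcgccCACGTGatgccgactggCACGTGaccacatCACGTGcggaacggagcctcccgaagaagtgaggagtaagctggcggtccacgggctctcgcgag
Ctsd: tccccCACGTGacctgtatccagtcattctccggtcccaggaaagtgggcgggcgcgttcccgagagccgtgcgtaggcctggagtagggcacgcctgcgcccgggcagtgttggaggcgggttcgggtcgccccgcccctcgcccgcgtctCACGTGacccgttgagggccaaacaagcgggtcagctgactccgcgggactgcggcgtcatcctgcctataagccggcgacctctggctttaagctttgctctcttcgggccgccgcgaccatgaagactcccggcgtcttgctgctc
Glb1: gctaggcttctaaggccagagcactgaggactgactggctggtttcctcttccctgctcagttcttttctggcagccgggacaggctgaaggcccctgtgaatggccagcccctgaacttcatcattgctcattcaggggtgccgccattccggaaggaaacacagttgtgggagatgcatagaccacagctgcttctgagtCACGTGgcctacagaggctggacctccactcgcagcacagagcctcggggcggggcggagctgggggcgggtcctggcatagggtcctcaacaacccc
Mcoln1: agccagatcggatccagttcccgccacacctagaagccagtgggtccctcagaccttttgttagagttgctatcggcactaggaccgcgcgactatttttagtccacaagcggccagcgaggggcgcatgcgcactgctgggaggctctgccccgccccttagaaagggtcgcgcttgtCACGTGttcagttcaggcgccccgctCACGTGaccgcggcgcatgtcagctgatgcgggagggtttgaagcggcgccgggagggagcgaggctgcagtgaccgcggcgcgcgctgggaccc
Gabarapl2: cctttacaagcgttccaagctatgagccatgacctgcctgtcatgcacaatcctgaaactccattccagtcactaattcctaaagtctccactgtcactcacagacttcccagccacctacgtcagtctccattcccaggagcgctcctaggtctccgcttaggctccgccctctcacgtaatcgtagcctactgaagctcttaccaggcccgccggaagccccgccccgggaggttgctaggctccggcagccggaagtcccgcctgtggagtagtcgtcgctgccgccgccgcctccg

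In *Lamp1* the 4 copies begin 61, 45, 28 and 15 bases before the start site, in *Mcoln1* the copies begin 71 and 45 bases before it, in *Glb1* the only copy begins 48 bases before it, and in *Ctsd* they begin 245 and 98 bases before it. Genes with the element were found among the higher, the lower and the uncalled genes. Of the 11 genes with CACGTG, 1 was higher in ΔTAM, 3 were lower, 5 did not pass the test and 2 were too low to be tested on RPKM. Of the 18 with a window without it, 3 were higher, 7 were lower, 7 did not pass and 1 was not tested. Over all 9001 genes tested on RPKM, 19.9% were higher and 16.0% lower, and the groups by motif are too small to set against these shares. A match is a description of the letters in the window and says nothing of binding.

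The deposited values are RPKM, here reads per kilobase of the genomic span of a gene on a per-million scale of reads, introns included, which lowers the values of genes with long introns. The library totals that these RPKM imply are 6.65 to 6.73 times the reads on genes, so RPKM and the filter of 0.1 RPKM are lower by that factor than on a scale of reads on genes. Changes were tested with limma on log2(RPKM + 0.1) for the 9001 genes whose mean over the 8 libraries reached 0.1 RPKM, and a gene was called where the adjusted p was under 0.05. Among the 34 genes, 31 were above this filter, and 5 of them were higher in ΔTAM, 10 were lower and 16 were not called. The 5 higher genes were *Gabarapl2*, *Npc1*, *Map1lc3b*, *Ulk1* and *Lamp1*, and the 10 lower ones were *Ctsz*, *Ctsd*, *Tfeb*, *Ctsl*, *Grn*, *Glb1*, *Gabarapl1*, *Cd63*, *Npc2* and *Lamp2*. Over all genes tested, 19.9% were higher, 16.0% were lower and 35.9% were called in either direction, against 16.1%, 32.3% and 48.4% of the 31. The values of the WT and ΔTAM libraries did not overlap for 15 of the 31 genes, against 37.2% of all genes tested. The median log2 fold change was -0.05 over the 31 genes and 0.01 over all genes tested. Most changes were small: among the 31 genes *Gabarapl2* alone changed by 0.58 or more on the log2 scale in either direction at an unadjusted p under 0.05, a limit that 3.81% of all genes tested passed. The pseudocount shrinks the fold change of low genes, and a second scale, fold changes of whole reads recovered from the RPKM values and tested with limma voom, is given beside the first where it is over 1.5 times as large or the gene was under the filter, and for some other genes of low RPKM. By voom on recovered reads all 34 genes were tested, the same 15 genes were called in the same directions, which is 14.7% higher and 29.4% lower of the 34, against 22.4% and 21.4% of 12659 genes. The share called in either direction was then 44.1%, near the 43.8% of all genes. In bulk RNA, fewer cells of a type and less RNA per cell cannot be told apart.

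**Figure D1:**
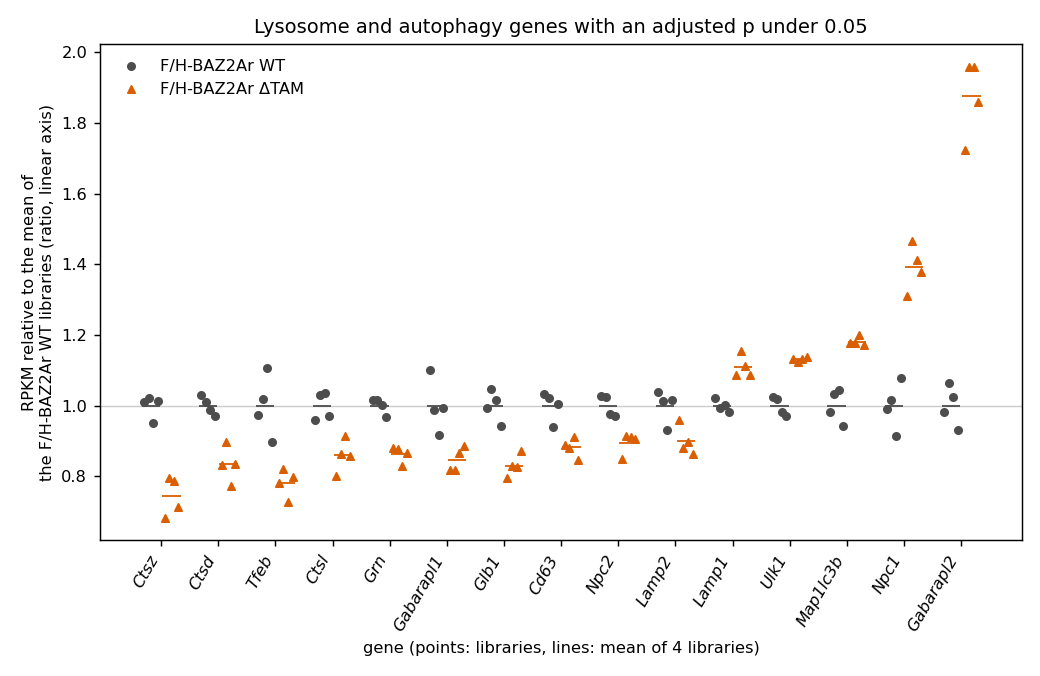
RPKM of the 15 called genes in each library, divided by the mean of the 4 WT libraries of that gene, with WT libraries as grey circles, ΔTAM libraries as orange triangles and the mean of each condition as a line. The conditions are separate for 14 of the 15 genes, they overlap for *Lamp2*, and *Gabarapl2* lies farthest from 1.

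The 3 regulators were *Tfeb*, *Tfe3*, whose proteins activate lysosomal genes, and *Flcn*, whose protein is needed for the nutrient signal that keeps both factors in the cytoplasm. *Tfeb* (chr17:47737030-47792419 of mm10) was the lowest of them per genomic span and was lower in ΔTAM. It had 0.174, 0.183, 0.198 and 0.161 RPKM in the WT libraries and 0.140, 0.147, 0.130 and 0.143 RPKM in the ΔTAM libraries. Every ΔTAM library was below every WT library, with means of 0.179 ± 0.0156 RPKM (SD, n = 4) and 0.140 ± 0.00712 RPKM (SD, n = 4). The log2 fold change on RPKM + 0.1 was -0.22 (SE 0.049, adjusted p = 0.0113 by limma with Benjamini-Hochberg adjustment), and that of recovered reads was -0.35 (SE 0.064, adjusted p = 1.7e-04 by limma voom), from 460 to 535 reads per WT library and 350 to 460 per ΔTAM library. *Tfe3* (chrX:7762560-7775202) had 1.06, 1.01, 1.11 and 1.02 RPKM in WT and 0.969, 1.13, 0.993 and 1.06 RPKM in ΔTAM. These libraries overlapped, and its log2 fold change of -0.02 had a 95% interval from -0.14 to 0.10 (adjusted p = 0.814 by limma). *Flcn* (chr11:59791408-59810016) had 0.396, 0.387, 0.381 and 0.387 RPKM in WT and 0.329, 0.396, 0.375 and 0.365 RPKM in ΔTAM. The conditions overlapped for *Flcn* as well, at a log2 fold change of -0.07 with a 95% interval from -0.17 to 0.04 (adjusted p = 0.280 by limma).

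Among the 4 genes of membrane proteins, 1 was higher and 2 were lower, against 19.9% and 16.0% of all genes tested. *Lamp1* and *Lamp2* encode the heavily glycosylated proteins that line the inside of the lysosomal membrane, *Cd63* a tetraspanin of late endosomes and lysosomes, and *Mcoln1* the calcium channel of the lysosome. *Lamp1* (chr8:13159161-13175338) had 3.32, 3.23, 3.26 and 3.20 RPKM in WT and 3.54, 3.76, 3.62 and 3.54 RPKM in ΔTAM. All 4 ΔTAM libraries were above all WT libraries, at a log2 fold change of 0.15 (SE 0.027, adjusted p = 0.00452 by limma). *Lamp2* (chrX:38401357-38456454) went the other way, from 0.473, 0.462, 0.424 and 0.462 RPKM to 0.436, 0.401, 0.408 and 0.393 RPKM. Its log2 fold change was -0.12 (SE 0.039, adjusted p = 0.0419 by limma), but 1 ΔTAM library was above the lowest WT library, and leaving out any single library other than WT replicate 3 or ΔTAM replicate 1 ended the call, with adjusted p up to 0.104. *Cd63* (chr10:128900989-128912822) had 1.50, 1.48, 1.36 and 1.45 RPKM in WT and 1.28, 1.28, 1.32 and 1.23 RPKM in ΔTAM. It was lower in every ΔTAM library, at a log2 fold change of -0.17 (SE 0.036, adjusted p = 0.00938 by limma). *Mcoln1* (chr8:3500457-3515232) had means of 0.609 ± 0.0305 and 0.585 ± 0.0277 RPKM (SD, n = 4 each) and was not called (log2 fold change -0.05, 95% interval -0.15 to 0.05).

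Of the 5 proteases, 3 were lower in ΔTAM, against 16.0% of all genes tested, and none was higher. *Ctsd*, *Ctsl*, *Ctsz* and *Ctsb* encode the cathepsins D, L, Z and B, and *Ctsa* the protective protein that holds β-galactosidase and neuraminidase in a complex. *Ctsz* (chr2:174427493-174439039) had the largest decrease of the 31 genes, from 0.854, 0.863, 0.802 and 0.856 RPKM in WT to 0.577, 0.670, 0.663 and 0.601 RPKM in ΔTAM. The gap between the conditions was wider than the range within either, at a log2 fold change of -0.38 (SE 0.049, adjusted p = 9.6e-04 by limma). *Ctsd* (chr7:142375911-142388038), which encodes the main aspartic protease of the lysosome, had 1.50, 1.47, 1.44 and 1.41 RPKM in WT and 1.21, 1.31, 1.12 and 1.22 RPKM in ΔTAM. It was lower in every ΔTAM library, with a log2 fold change of -0.24 (SE 0.044, adjusted p = 0.00400 by limma). *Ctsl* (chr13:64359337-64370890) had 3.27, 3.51, 3.52 and 3.30 RPKM in WT and 2.72, 2.94, 3.11 and 2.92 RPKM in ΔTAM. These did not overlap, and the log2 fold change was -0.21 (SE 0.045, adjusted p = 0.00885 by limma). *Ctsb* (chr14:63122462-63145923) and *Ctsa* (chr2:164832873-164841032) overlapped between the conditions, with log2 fold changes of -0.04 (95% interval -0.10 to 0.02) and -0.04 (95% interval -0.15 to 0.06), both not called.

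Of the 5 glycosidases, 1 was lower, a share near the 16.0% of all genes tested, and none was higher. *Glb1* (chr9:114401076-114474898), the β-galactosidase that cleaves terminal galactose from gangliosides, had 0.313, 0.329, 0.319 and 0.296 RPKM in WT and 0.250, 0.261, 0.260 and 0.274 RPKM in ΔTAM. The conditions were separate, and the log2 fold change was -0.20 on RPKM + 0.1 (SE 0.035, adjusted p = 0.00364 by limma) and -0.26 in recovered reads. *Neu1* (chr17:34931253-34935953), the neuraminidase, overlapped between conditions at 1.53 ± 0.0800 and 1.40 ± 0.0810 RPKM (SD, n = 4 each) and was not called (log2 fold change -0.12, adjusted p = 0.0969 by limma). *Hexa*, a subunit of β-hexosaminidase, *Gusb*, the β-glucuronidase, and *Gla*, the α-galactosidase A, had log2 fold changes of -0.08, -0.06 and 0.08 with overlapping libraries and were not called.

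*Npc1* and *Npc2* encode the membrane-bound and the soluble protein that together move cholesterol out of the lysosome, and their mRNAs changed in opposite directions. *Npc1* on chromosome 18 had 0.170, 0.174, 0.157 and 0.185 RPKM in WT and 0.225, 0.252, 0.242 and 0.236 RPKM in ΔTAM. Every ΔTAM library was above every WT library, at a log2 fold change of 0.32 on RPKM + 0.1 (SE 0.042, adjusted p = 0.00103 by limma) and of 0.48 in recovered reads, or 1.40-fold. *Npc2* (chr12:84754562-84773152) had 3.18, 3.17, 3.02 and 3.00 RPKM in WT and 2.63, 2.83, 2.82 and 2.81 RPKM in ΔTAM. All ΔTAM libraries were lower, at a log2 fold change of -0.15 (SE 0.034, adjusted p = 0.00977 by limma). *Grn* (chr11:102430315-102437048), which encodes progranulin, a secreted protein that is taken up and cut into granulins in the lysosome, had 4.89, 4.90, 4.83 and 4.66 RPKM in WT and 4.24, 4.23, 4.00 and 4.17 RPKM in ΔTAM. It was lower in all ΔTAM libraries, at a log2 fold change of -0.21 (SE 0.028, adjusted p = 0.00116 by limma). *Psap* (chr10:60277627-60302597), the precursor of the saposins that present sphingolipids to hydrolases, had 2.43 ± 0.0754 and 2.53 ± 0.0834 RPKM (SD, n = 4 each) and was not called (log2 fold change 0.06, 95% interval -0.02 to 0.13).

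None of the 3 subunits of the vacuolar H+-ATPase, the pump that acidifies the lysosome, was called, against 35.9% of all genes tested. With 3 genes this share leaves little to compare, and other subunits of the pump are given below. *Atp6v1a* (chr16:44085402-44139705), the catalytic subunit A, had 0.790 ± 0.00445 RPKM in WT and 0.817 ± 0.0196 RPKM in ΔTAM (SD, n = 4 each). Its libraries did not overlap, but the difference was small, at a log2 fold change of 0.04 with a 95% interval from -0.01 to 0.10 (adjusted p = 0.185 by limma). *Atp6v0d1*, of the membrane sector, had a log2 fold change of -0.09 (95% interval -0.17 to -0.0018, adjusted p = 0.103 by limma), and *Atp6v1h*, a regulatory subunit, had 0.02 (95% interval -0.07 to 0.11) and 0.04 in recovered reads.

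Of the 4 ATG8 genes, 2 were higher in ΔTAM, among them the gene with the largest change of the 31, and 1 was lower, against 19.9% and 16.0% of all genes tested. *Gabarapl2* (chr8:111940703-111953612), which encodes GATE-16, an ATG8 protein of late autophagosome growth and fusion, had 0.510, 0.552, 0.531 and 0.483 RPKM in WT and 0.895, 1.02, 1.02 and 0.964 RPKM in ΔTAM. The lowest ΔTAM library was far above the highest WT library, with means of 0.519 ± 0.0294 and 0.973 ± 0.0577 RPKM (SD, n = 4 each). The log2 fold change was 0.79 on RPKM + 0.1 (SE 0.050, 95% interval 0.68 to 0.91, adjusted p = 4.5e-05 by limma) and 0.91 in recovered reads (SE 0.059, adjusted p = 1.2e-10 by limma voom), or 1.88-fold, from 322 to 367 reads per WT library and 522 to 723 per ΔTAM library. *Map1lc3b* (chr8:121590361-121598760), which encodes the LC3B protein used to follow autophagosomes, had 1.76, 1.85, 1.87 and 1.69 RPKM in WT and 2.11, 2.11, 2.15 and 2.10 RPKM in ΔTAM. It was higher in every ΔTAM library, at a log2 fold change of 0.23 (SE 0.034, adjusted p = 0.00179 by limma). *Gabarapl1* (chr6:129533160-129542346) was lower, with 0.631, 0.567, 0.525 and 0.570 RPKM in WT and 0.470, 0.470, 0.496 and 0.508 RPKM in ΔTAM. The conditions lay close without overlap, at a log2 fold change of -0.20 (SE 0.050, adjusted p = 0.0175 by limma), a call that was lost with the replicate number as a block (adjusted p = 0.0549 by limma). *Map1lc3a* (chr2:155276297-155278073) had the widest interval of the 31 genes, with a log2 fold change of 0.07 between -0.15 and 0.28, on 120 to 161 reads per library. *Sqstm1* (chr11:50199366-50210827), which encodes the cargo receptor p62, had 2.89 ± 0.124 and 2.94 ± 0.112 RPKM (SD, n = 4 each), with a log2 fold change of 0.02 between -0.07 and 0.12.

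Of the 5 core autophagy genes, 2 were tested on RPKM and *Ulk1* alone was higher, against 19.9% of all genes tested. In recovered reads 1 of the 5 was higher (20.0%), near the 22.4% of all genes. *Ulk1* (chr5:110784488-110810097) encodes the kinase that starts autophagy and had 1.78, 1.77, 1.71 and 1.69 RPKM in WT and 1.97, 1.95, 1.97 and 1.98 RPKM in ΔTAM. The ΔTAM libraries were tightly grouped above all WT libraries, at a log2 fold change of 0.17 (SE 0.024, adjusted p = 0.00150 by limma). *Becn1* (chr11:101285952-101302286), of the lipid kinase complex that acts next, was not called, at a log2 fold change of -0.02 between -0.09 and 0.05. *Wipi1*, which binds the lipid made by that complex, *Atg5*, part of the machinery that attaches ATG8 to membranes, and *Atg7*, the enzyme that activates ATG8, were below the filter. In recovered reads, tested with limma voom, their log2 fold changes were -0.06 (adjusted p = 0.626), 0.07 (adjusted p = 0.397) and 0.04 (adjusted p = 0.722), on 112 to 160, 313 to 451 and 168 to 227 reads per library.

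**Figure D2:**
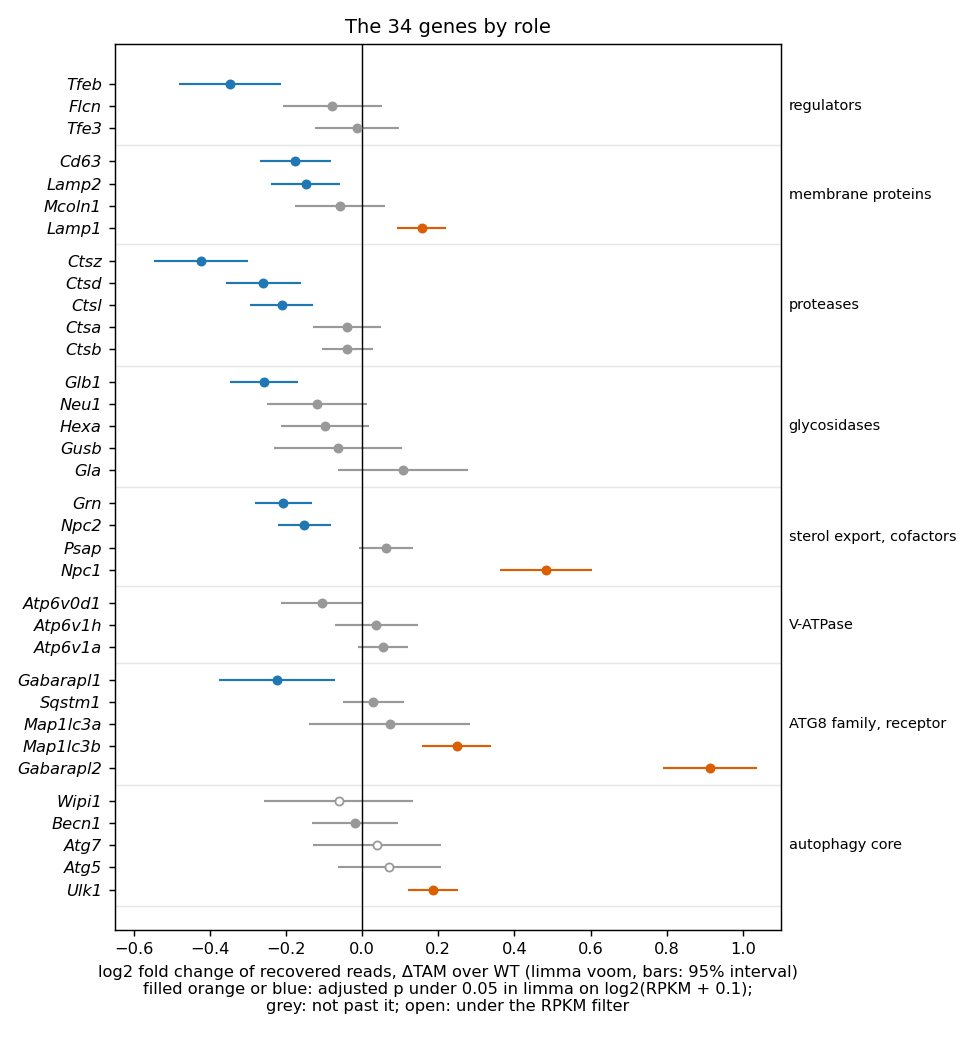
Log2 fold change of recovered reads, ΔTAM over WT, for the 34 genes grouped by role, each with its 95% interval from limma voom on 4 libraries per condition. Orange and blue points are higher and lower genes, grey points did not pass the test on RPKM and open points were under its filter. The 3 called proteases lie on the left of 0, and *Gabarapl2* at 0.91 is the point farthest to the right.

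To compare levels between genes, recovered reads were divided by the exon length of the gene in GENCODE vM21 and by the reads on genes of the library. On this per-million scale of reads per exonic kilobase, the WT means ran from 148 for *Psap* and 132 for *Lamp1* down to 4.46 for *Wipi1* and 3.70 for *Atg7*. *Psap* at 148 ± 4.97 and *Lamp1* at 132 ± 2.03 lay apart by more than their SDs (n = 4), whereas *Glb1* at 51.6 ± 2.15, *Ctsd* at 50.3 ± 1.21 and *Ctsb* at 50.0 ± 0.432 did not. In ΔTAM, *Ctsb* at 48.4 ± 1.24 was above *Glb1* at 42.8 ± 1.52 and *Ctsd* at 41.9 ± 2.57. *Tfeb*, the lowest regulator per genomic span, was within its SD of *Flcn* per exonic kilobase in WT, at 11.7 ± 0.998 and 11.2 ± 0.184, with *Tfe3* at 9.61 ± 0.403, and in ΔTAM it was at 9.14 ± 0.468 beside 10.5 ± 0.755 for *Flcn* and 9.46 ± 0.632 for *Tfe3*. Among the ATG8 genes in WT, *Gabarapl2* was at 19.3 ± 1.04, *Gabarapl1* at 17.5 ± 1.33, *Map1lc3a* at 15.8 ± 1.92 and *Map1lc3b* at 13.4 ± 0.593. In ΔTAM, *Gabarapl2* stood at 36.1 ± 1.96 and the other three between 14.8 and 16.5. The exon length counts every annotated isoform, so genes with long rare exons appear lower than they are.

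*Gabarapl2*, *Lamp1* and *Map1lc3b* are all on chromosome 8, which holds 5 of the 34 genes. The median log2 fold change of the 497 genes tested on chromosome 8 was -0.01. On chromosome X, which holds *Tfe3*, *Lamp2* and *Gla*, it was -0.05 over 284 genes, the lowest of the chromosomes with members. Around *Gabarapl2*, 7 other genes within 250 kb were tested. *Tmem231*, which ends closest before it, had a log2 fold change of 0.16 (SE 0.047, adjusted p = 0.0306 by limma) and *Tmem170* 0.21 (SE 0.057, adjusted p = 0.0262 by limma). *Adat1* on the other side had 0.10 (adjusted p = 0.192 by limma), and *Bcar1*, *Cfdp1*, *Kars* and *Terf2ip* lay between -0.06 and 0.05 and were not called. All 7 fold changes were smaller than the 0.79 of *Gabarapl2*.

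**Figure D3:**
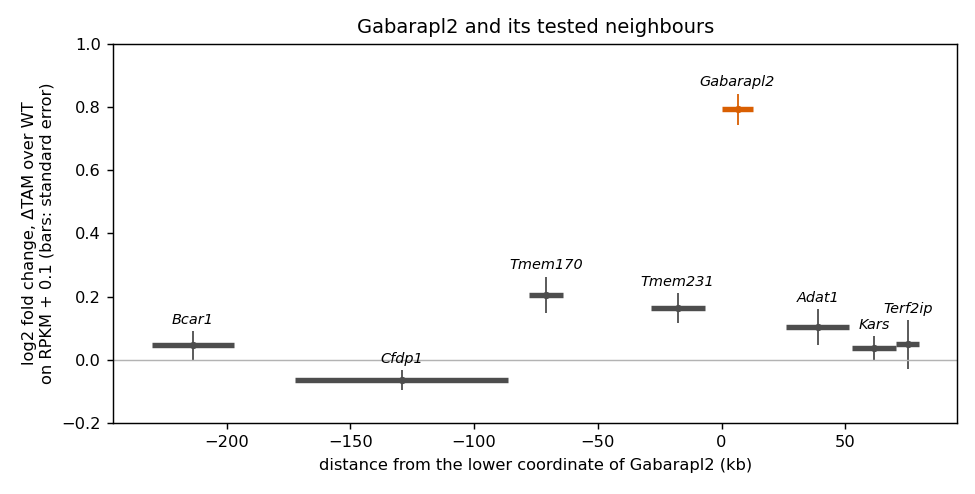
Log2 fold change on RPKM + 0.1, ΔTAM over WT, against the distance in kb from the lower coordinate of *Gabarapl2*, for *Gabarapl2* in orange and its 7 tested neighbours in grey, with horizontal bars for the gene span and vertical bars for the standard error. *Gabarapl2* is at 0.79 and the neighbours are between -0.06 and 0.21.

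In GENCODE vM21, 17 of the 34 genes overlap another gene, 9 of them among the 15 called, and the use of strand in counting is not given in the sources used here. *Gabarapl2*, *Tfeb* and *Ulk1* have no such partner. *Glb1* was lower while *Tmppe* on the same strand, within its span, was higher (log2 fold change of recovered reads 0.37, adjusted p = 0.00357 by limma voom). *Ctsb* was not called while *Fdft1* on the opposite strand was higher (0.42 on the same scale, adjusted p = 2.7e-08 by limma voom), and neither was *Ctsa* while *Pltp* was lower (-0.59, adjusted p = 2.2e-07 by limma voom). *Grtp1*, opposite to *Lamp1*, was higher as well (0.28, adjusted p = 1.7e-04 by limma voom). How many reads of these pairs are shared was not tested.

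A wider set of 179 other lysosome and autophagy genes was listed by function, and 122 of them passed the filter, of which 15 were higher and 29 lower. These are 12.3% and 23.8%, against 19.9% and 16.0% of all genes tested, and the share called in either direction, 36.1%, was near the 35.9% of all genes. In recovered reads 16.4% of 165 were higher and 28.5% lower, against 22.4% and 21.4% of all genes. Of 29 hydrolases tested among 43, 12 were lower (41.4%, against 16.0% of all genes) and 1 was higher (3.45%, against 19.9%). In recovered reads 17 of 39 were lower (43.6%, against 21.4%) and 2 higher (5.13%, against 22.4%). *Arsa*, the arylsulfatase A, had a log2 fold change of -0.66, *Smpd1*, the acid sphingomyelinase, -0.59 and *Gaa*, the acid α-glucosidase, -0.47, while *Lgmn*, the asparagine endopeptidase, had 0.23. Together with the 10 proteases and glycosidases among the 34 genes, 16 of 39 hydrolases tested were lower and 1 was higher, at a median log2 fold change of -0.08.

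Of 22 genes of nutrient sensing at the lysosome, 7 were lower (31.8%, against 16.0% of all genes) and 1 was higher (4.55%, against 19.9%), and in recovered reads 13 of 28 were lower (46.4%, against 21.4%) and 4 higher. The share called in either direction, 36.4%, was near the 35.9% of all genes, and in recovered reads it was 60.7% against 43.8%. The lower ones included *Rragb* at a log2 fold change of -0.35 on RPKM + 0.1 and -0.69 in recovered reads, whose product is a Rag GTPase that recruits mTORC1, *Nprl2* at -0.29, of the complex that switches Rag GTPases off, and *Sesn2* at -0.28, a leucine sensor. *Rraga*, the close relative of *Rragb*, was the higher one at 0.24. Of 13 other V-ATPase genes tested, 4 were lower (30.8%, against 16.0% of all genes) and none was higher (against 19.9%). Among the lower ones were *Atp6v0b* at -0.31 and *Atp6v0a1* at -0.27 (-0.41 in recovered reads). The share called in either direction, 30.8%, was below the 35.9% of all genes. In recovered reads 5 of 15 V-ATPase genes were lower (33.3%, against 21.4%) and 2 higher (13.3%, against 22.4%). The share called was then 46.7%, near the 43.8% of all genes. Of 18 sorting and tethering genes, 4 were lower (22.2%, against 16.0% of all genes) and 2 higher (11.1%, against 19.9%). Of 20 in recovered reads, 5 were lower, near the 21.4% of all genes, and 2 higher, against 22.4% of all genes. The lower ones included *Gnptg* at -0.38, of the enzyme that tags hydrolases with mannose 6-phosphate, and *Vps35* at -0.23, of the retromer.

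Of 18 further autophagy genes tested among 32, 5 were higher (27.8%, against 19.9% of all genes) and none was lower, led by *Atg2a*, a lipid transfer protein of the growing membrane, at a log2 fold change of 0.40, *Wipi2* at 0.24 and *Tmem41b*, a lipid scramblase, at 0.23. In recovered reads all 32 were tested, of which 7 were higher and 3 lower. The 21.9% that were higher on this scale are near the 22.4% of all genes. Of 7 other cargo receptor genes, 3 were higher (42.9%, against 19.9% of all genes) and none was lower, led by *Ncoa4*, the receptor for ferritin, at 0.41, followed by *Tax1bp1* and *Tollip*, both at 0.13, and in recovered reads 4 of 10 were higher and 1 lower. *Tax1bp1* lost its call without any single library but ΔTAM replicates 2 and 3, and *Tollip* without WT replicates 1, 2 or 4 or ΔTAM replicate 1, with adjusted p by limma up to 0.103 and 0.0606. Of 15 other membrane proteins, 3 were higher (20.0%, against 19.9% of all genes) and 2 lower (13.3%, against 16.0%), and in recovered reads 6 of 21 were higher (28.6%, against 22.4%) and 3 lower (14.3%, against 21.4%), with *Abca2*, a lipid transporter, at -0.57 and *Sppl2a*, an intramembrane protease, at 0.21 (0.34 in recovered reads). The directions of the lists were not tested against each other.

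**Figure D4:**
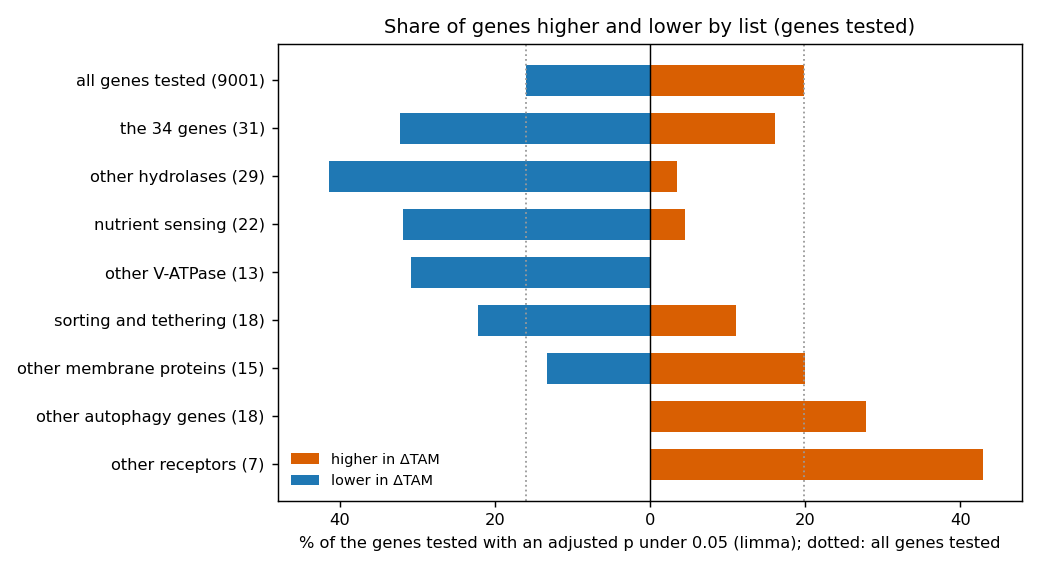
Share of the tested genes of each list that were called by limma (adjusted p under 0.05), in %, with genes higher in ΔTAM to the right in orange, lower to the left in blue, the number of genes tested in brackets and dotted lines for all genes tested (19.9% higher, 16.0% lower). The 34 genes, hydrolases, nutrient sensing, V-ATPase and sorting genes extend to the left past the line for all genes. Autophagy genes and the 7 receptors extend past it to the right. On the scale of recovered reads, which is not plotted, the autophagy genes are at 21.9% higher, near the 22.4% of all genes. On that scale 5 of 20 sorting genes are lower, near the 21.4% of all genes.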

How the data were processed

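RNA-seq libraries of ESC + F/H-BAZ2Ar WT (4) and ESC + F/H-BAZ2Ar ΔTAM (4) were made with a stranded kit after selection of polyadenylated RNA. The authors filtered out reads of ribosomal RNA, trimmed the rest (Trimmomatic 0.36 in the submitters' processing notes), mapped them with STAR to mm10 and deposited RPKM values per gene and library from exon coverage, without pooling. The annotation release, strand use and handling of multimapping reads are not given in the sources used here.

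In each library, RPKM times gene span was a whole multiple of a fixed step (99.6% to 99.7% of values above 0, within 0.1), and whole reads were recovered from this. Of 51288 entries, 381 repeated entries of 231 symbols were set aside, except that 6 symbols were kept apart. Differences were tested with limma 3.58.1 in R 4.3.3 (lmFit, eBayes with trend) on log2(RPKM + 0.1), with means of 0.1 RPKM or more required and no covariate, and Benjamini-Hochberg adjustment over all 9001 genes. limma voom with TMM factors on genes with a mean of at least 10 recovered reads called 5549 of 12659 genes. Alternatives changed the pseudocount, filter, scaling, variance model, replicate block, libraries or unit.

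On simulated reads for this comparison, with 200 genes moved by 1 on the log2 scale, limma on RPKM recovered 98% with 8 false calls among 9001 genes, and voom 99% with 13 false calls among 12672. The mean estimate per unit moved was 0.786 on RPKM and 0.999 by voom. The simulated spread between libraries was a fixed setting. None of the 34 genes changed by as much as 1, so the recovery of changes as small as theirs was not tested. The 34 genes and the lists were chosen with earlier results of these data known. Values per library are given for called genes whose conditions did not overlap and for the 3 regulators, and outside this rule for *Lamp2*, chosen after its values were seen, and per list of other genes up to 3 were eligible in each direction by size among such genes. Python 3.11.15 drew the figures. ChIP-seq, iCLIP, imaging and proteomics were not analysed here.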

Additional observations from a re-analysis of the deposited data

Results flagged for a closer look

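Within a condition of 4 libraries, 5 of the 34 genes had a library that stood apart from the other three, where the gap to the nearest library took a share of the range above Dixon's 95% critical value. *Ctsz* was at 0.802 RPKM in WT replicate 3, with the others between 0.854 and 0.863 RPKM. *Npc2* was at 2.63 RPKM in ΔTAM replicate 1 against 2.81 to 2.83 RPKM. *Psap* was at 2.41 RPKM in ΔTAM replicate 4 against 2.56 to 2.58 RPKM. *Atp6v1a* was at 0.783 RPKM in WT replicate 1 against 0.791 to 0.792 RPKM. *Atg5* was at 0.0882 RPKM in ΔTAM replicate 3 against 0.0731 to 0.0745 RPKM. 68 such groups of 4 were examined, and chance flags about 1 in 20 of them. The 5 values fall in 5 different libraries, and the calls of *Ctsz* and *Npc2* remained without each library in turn, with adjusted p by limma up to 0.00426 and 0.0305.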

How the results depend on the processing

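The 15 called genes had the same sign in all 278 values under the alternatives, and 269 of these had an adjusted p under 0.05. The exceptions were *Lamp2*, lost without 6 of the 8 libraries, without a filter (adjusted p = 0.0775 by limma) and with the replicate block (0.0593; range over the alternatives 0.00724 to 0.104), and *Gabarapl1*, lost with the block (0.0549; range 0.00945 to 0.0549). Leaving out each library in turn gave 5 to 5 higher and 9 to 10 lower genes of the 34, 2619 to 3054 of all genes, and 10 to 16 higher and 24 to 29 lower other lysosome and autophagy genes. A filter at 1 RPKM left fewer genes to test and gave 3 higher and 5 lower of 15, 2 higher and 5 lower of 21 others, and 992 of all 2151 genes. Recovered reads, where unit, filter and variance model change at once, gave 5549 calls over all genes by voom with TMM and 5534 with median-ratio factors, and 27 or 25 higher and 47 or 47 lower others. With the replicate number as a block, 5 genes were higher and 8 lower, and 2797 of all genes were called, but libraries of the same number deviated together only with correlations of 0.0238 to 0.0623, so the numbers were not read as pairs. Reversed signs occurred only among genes not called: *Sqstm1* (-0.021 with quantile scaling) and, over the libraries left out in turn, *Tfe3* (-0.056 to 0.012), *Map1lc3a* (-0.010 to 0.12), *Becn1* (-0.038 to 0.0045) and *Atg7* (-8.0e-04 by voom without WT replicate 1). *Ctsb* and *Neu1* passed the test with quantile scaling (adjusted p = 0.0226 and 0.0308 by limma), *Neu1* also without ΔTAM replicate 3 (0.0347), with highest values of 0.448 and 0.208 over the alternatives. Where a cause is not given by construction, the cause was not tested. *Map1lc3a* and *Wipi1* had the fewest reads of the 34 genes, and the part of depth in their intervals was not tested.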
